A study of Mus musculus with 6 samples.

Results

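The Myc, Max and Mxd network was read as 10 genes, Myc, Mycn, Mycl1, Max, Mxd1, Mxd3, Mxd4, Mxi1, Mnt and Mlx, chosen by symbol among the 14766 annotations that name a gene. Messenger RNA was sequenced from Mvt1 cells, a cell line from mammary tumors of FVB/N mice that carried Myc and Vegf transgenes driven by the mouse mammary tumor virus (MMTV) promoter. All 6 libraries share these transgenes. The cells were stained for the surface protein CD24, sorted by FACS into CD24- and CD24+ cells and grown in DMEM with 10% serum, and RNA was taken from 3 plates of each group. No agent was given to either group. As the plates come from 1 line and no separate sorts are described, SDs and p-values measure the spread between plates, which may be technical, and a difference tied to CD24 cannot be told apart from any other between the sorts.

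Myc proteins bind DNA as pairs with Max, at a motif called the E-box (CACGTG), and raise transcription of genes of growth, nucleotide synthesis and ribosome assembly. Mxd proteins, Mxi1 and Mnt compete for Max and bring the Sin3 corepressor to the same sites, and Mlx is a Max-like partner of the glucose-sensing Mondo proteins. Myc is a frequently amplified gene of mammary carcinoma, and its short-lived RNA and protein follow growth signals.

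Each library listed distinct 47-nt reads with a location, an annotation and a count, and held between 9046025 and 25692147 mapped reads, of which 6491833 to 19100844 were annotated to a gene. CD24+ replicate 1 was the shallowest library. CD24- replicates 1 and 2 differed less from each other (chi-square per degree of freedom of 1.75 over genes) than any other pair of one group did (9.69 to 15.9), and still by more than sampling noise. Levels are counts per 1000000 gene reads after TMM scaling (CPM), and differences are log2 fold-changes of CD24+ over CD24- cells from edgeR's quasi-likelihood test with Benjamini-Hochberg adjustment over 11125 tested genes, with an adjusted p below 0.05 as the threshold. Cd24a, the gene of the sorted marker, rose in CD24+ cells with a log2 fold-change of 2.91 (SE 0.17, adjusted p = 5.39e-07). The labels call the cells mammary epithelial. Krt8 and Krt18 were expressed in both groups, whereas Epcam and Cdh1, which define most epithelia, stayed under 1 CPM in every library.

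Of the 10 members, 8 had enough reads to be tested, and 5 of these fell in CD24+ cells, namely Myc, Max, Mnt, Mxd1 and Mxi1, while 0 rose. The background was high, since 46.1% of all tested genes passed the same threshold, 22.3% as lower and 23.8% as higher. The median log2 fold-change of the 8 tested members was -0.40, beside 0.02 for all tested genes. For 5 of the 8 (Myc, Max, Mnt, Mxd1 and Mlx) the 2 groups of libraries did not overlap, which is true of 57.3% of all tested genes and, as lower in CD24+ cells, of 27.6%. Myc, Max and Mnt were called with any single library left out. Mxd1 and Mxi1 were called in full and without CD24- replicate 3, and were not called when any of the other 5 libraries was left out, so that the count of members called ranged from 3 (without CD24- replicate 1 or 2, or CD24+ replicate 1 or 3) to 5.

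**Figure D1:**
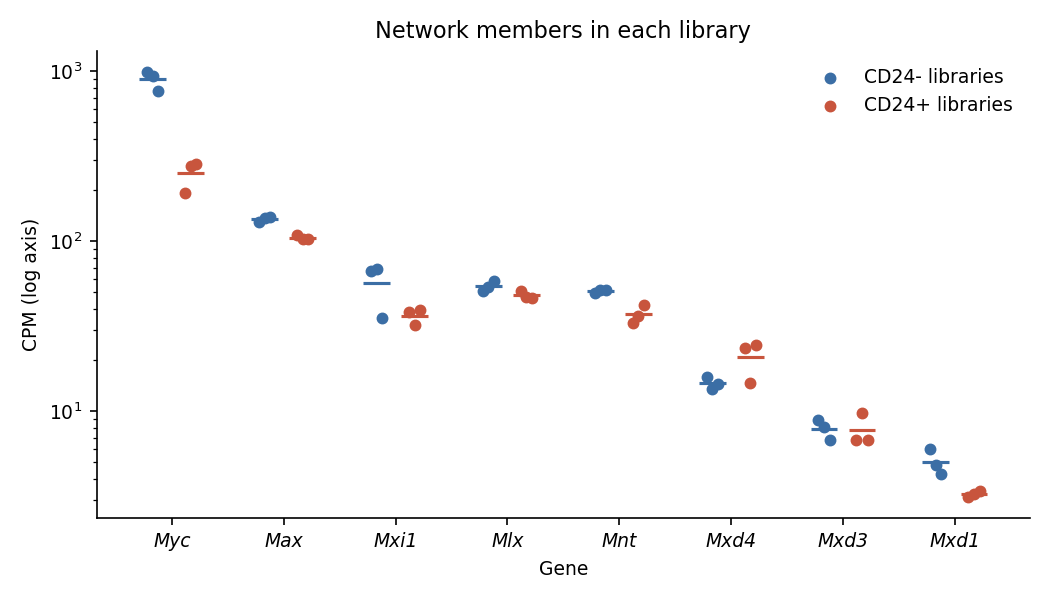
CPM (log axis) of the 8 tested members in each of the 3 CD24- and 3 CD24+ libraries, with a line at each group's mean. Myc is the most abundant member in both groups, at 767 to 989 CPM in CD24- and 193 to 285 CPM in CD24+ libraries, and CD24- replicate 3 lies with the CD24+ libraries for Mxi1.

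Myc, the central transcription factor, lies on chromosome 15 of GRCm38 from 61985391 to 61990374 on the plus strand. It had 989, 938 and 767 CPM in CD24- replicates 1, 2 and 3 and 193, 276 and 285 CPM in CD24+ replicates 1, 2 and 3. Every CD24- library was above every CD24+ library, by a wide gap. The means were 898 ± 116 and 251 ± 50.95 CPM (SD, n = 3 each), 3.56-fold higher in CD24- cells, with a log2 fold-change of -1.83 (SE 0.15, 95% interval -2.17 to -1.49, adjusted p = 5.77e-06, edgeR). Leaving out 1 library at a time moved it between -1.95 and -1.69. In bulk RNA, fewer cells that express a gene and less RNA per cell cannot be told apart.

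The deposited rows show what stands behind these values. The most frequent read wholly within the coding part of exon 2 lay at mm9 chr15:61819396-61819442 on the minus strand, and the one in exon 3 at chr15:61821367-61821413, also on the minus strand. They are shown as examples of the counted units.
exon 2: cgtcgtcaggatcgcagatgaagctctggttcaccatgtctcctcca
exon 3: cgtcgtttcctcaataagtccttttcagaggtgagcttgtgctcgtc
The exon 2 read was counted 29, 53 and 17 times in CD24- and 8, 21 and 20 times in CD24+ replicates 1, 2 and 3. The exon 3 read was counted 41, 85 and 28 times in CD24- and 4, 26 and 18 times in CD24+ libraries, although CD24+ replicates 2 and 3 were the deepest. Coding reads of Myc were spread over 1182 distinct sequences in exon 2 and 889 in exon 3, and no sequence held over 0.859% of the Myc reads of a library. Between 48.96% and 51.8% of the Myc reads that match its transcripts were in the sense direction, so the counts carry no strand.

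Myc fell in each of its 3 exons. When the parts of the locus were fitted among all genes in place of Myc, which was chosen after the data were seen, exon 1 had a log2 fold-change of -1.80 (SE 0.17), exon 2 of -1.84 (SE 0.15) and exon 3 of -1.75 (SE 0.15). Exon 1 is untranslated for most of its length. It held 17.03%, 16.99% and 16.6% of exonic Myc reads in CD24- libraries and 15.6%, 17.1% and 16.8% in CD24+ libraries, so that the groups overlapped (exact two-sided permutation test, p = 0.7, where 0.1 is the smallest p that 3 against 3 allows). The share of exon 3 was 48.97%, 47.8% and 49.9% in CD24- libraries and 50.8%, 50.5% and 50.05% in CD24+ libraries, so that these groups did not overlap (same exact test, p = 0.1).

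Intron 1 held 9.26, 8.57 and 12.8 reads per 100 exonic reads in CD24- libraries and 5.55, 7.25 and 7.18 in CD24+ libraries. These groups did not overlap, and the exact two-sided permutation test gave its smallest p, 0.1. On its own, intron 1 had a log2 fold-change of -2.29 (SE 0.18, adjusted p = 3.77e-06, edgeR) and fell from 80.1 ± 6.45 to 15.6 ± 4.93 CPM (SD, n = 3 each). Intron 2, with fewer reads, fell by 1.47 on the log2 scale (SE 0.18), and its reads per 100 exonic reads, 1.59, 1.82 and 2.56 in CD24- and 2.201, 2.24 and 2.52 in CD24+ libraries, overlapped between the groups (p = 0.4, same exact test).

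Past the annotated end of Myc, 4124 reads with no annotation were found, and among the fitted parts of the locus they differed least between the groups. They covered 816 bases without a gap, from the base after the last read annotated as Myc (which ends at mm9 chromosome 15, 61821958) to 61822774. They were counted 719, 802 and 547 times in CD24- and 213, 826 and 1017 times in CD24+ replicates 1, 2 and 3, that is 75.7, 76.0 and 61.7 CPM against 33.5, 46.7 and 53.3 CPM. The log2 fold-change was -0.65 (SE 0.15, adjusted p = 0.00553, edgeR), beside -1.75 in exon 3. With 1 library left out it ranged from -0.82 to -0.52. Per 100 Myc reads there were 7.65, 8.11 and 8.04 such reads in CD24- and 17.4, 16.9 and 18.7 in CD24+ libraries. Every CD24+ library was above every CD24- library, and the exact two-sided permutation test gave 0.1, its smallest p.

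**Figure D2:**
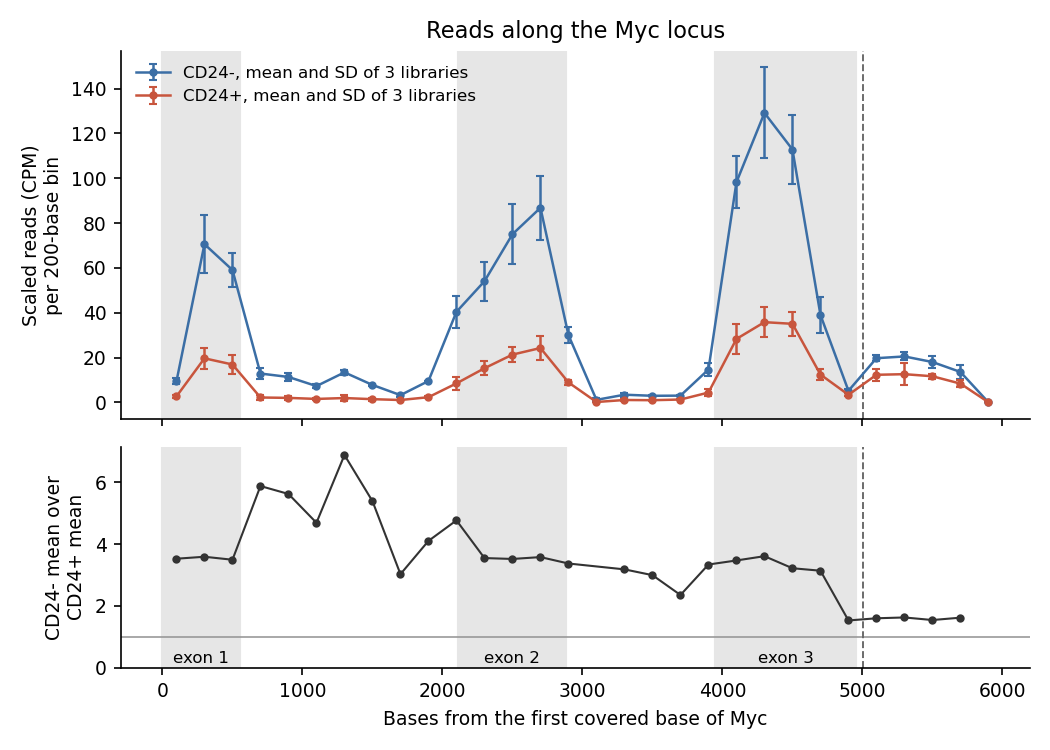
Scaled reads (CPM) in 200-base bins along the Myc locus (upper panel, mean and SD of 3 libraries per group) and the CD24- mean divided by the CD24+ mean in bins with at least 100 reads (lower panel), against the distance from the first covered base; grey spans are exons and the dashed line is the last base of reads annotated as Myc. The ratio is 3.52 to 3.58 in the bins wholly in exon 2 and 1.54 to 1.63 in the bins past the annotated end.

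The change of ratio lay inside exon 3, near the first of its 2 AATAAA hexamers, the signal for cleavage and polyadenylation. The stretches below are shown because the read counts change at them; capitals mark the AATAAA in the former and the last 6 covered bases in the latter, both on the plus strand of mm9 and read from the deposited reads.
first AATAAA, chr15:61821769-61821798: gtaaataactttAATAAAacgtttataaca
end of the reads, chr15:61822745-61822774: cgaaggagagggcaggagtcattaAAGCTT
From that hexamer to the annotated end, 13, 7 and 9 reads were found in CD24- and 5, 13 and 20 in CD24+ libraries, against 4125, 4274 and 2926 and 570, 2230 and 2453 reads in exon 3 before it. Per start position, the stretch past the annotated end was covered at 18.1%, 19.5% and 19.4% of the density of exon 3 before the hexamer in CD24- libraries, and at 38.8%, 38.4% and 43.0% in CD24+ libraries.

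The reads stopped sharply. The last covered base was between 61822769 and 61822774 in each of the 6 libraries, and 0 reads lay from there to 5000 bases past the annotated end. Over the libraries together, the last 6 covered bases, AAGCTT, are the recognition sequence of the restriction enzyme HindIII. It occurs 3 times in the 5824 covered bases of the locus and 1 time past the annotated end. Reads reached its last base, 61822774, in CD24- replicate 2 and CD24+ replicates 2 and 3. In the other libraries they ended at 61822769 or 61822770 and did not cover the whole site. A read had to match the genome over its full length to be deposited. Whether the reads came from the transgene, from the endogenous gene or from both was not tested.

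Reads of MMTV itself are given beside Myc, since the transgenes carry its promoter. The internal part of the virus (MMTV-int) had 21.9, 21.7 and 21.0 reads per 1000000 mapped reads (RPM) in CD24- and 14.1, 16.8 and 19.9 in CD24+ libraries, and its log2 fold-change of -0.32 missed the threshold (SE 0.14, adjusted p = 0.111, edgeR over 640 repeats, of which 16.7% passed). RLTR3_Mm, its long terminal repeat, had 20.7, 21.5 and 19.96 RPM in CD24- and 7.30, 11.9 and 13.4 in CD24+ libraries and fell by 0.88 on the log2 scale (SE 0.17, adjusted p = 0.00219). Neither repeat overlapped between the groups, but the share of all repeats without overlap was not determined. With TMM over repeats in edgeR, MMTV-int stood at -0.14 (adjusted p = 0.313) and RLTR3_Mm at -0.70 (adjusted p = 0.0070). Mouse genomes hold endogenous MMTV copies, and which copy a read came from was not tested. Vegfa, the other transgene's gene, had 60.7 CPM in CD24- and 118 CPM in CD24+ cells on average and rose by 0.95 (SE 0.11, adjusted p = 6.76e-05), the opposite direction to Myc. Whether the Vegfa reads came from the transgene, from the endogenous gene or from both was not tested.

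Mycn and Mycl1, the paralogs of Myc, were at or under the floor of 3 reads per library. Mycn had 0 reads in each CD24- library and 0, 3 and 2 reads in CD24+ replicates 1, 2 and 3. Mycl1 had 0 reads in each CD24- library and 2, 0 and 1 reads in CD24+ libraries. A difference in either was not detectable at this depth, and no fold is given.

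Max, the obligate partner of Myc, lies on chromosome 12 of GRCm38 from 76937269 to 76962201 on the minus strand. It had 130, 137 and 138 CPM in CD24- and 109, 104 and 102 CPM in CD24+ replicates 1, 2 and 3. The groups were narrow and did not overlap. The log2 fold-change was -0.37 (SE 0.07, adjusted p = 0.00246, edgeR), 1.29-fold higher in CD24- cells, and stayed between -0.40 and -0.35 with any library left out.

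Mnt, a broadly expressed repressor that pairs with Max, lies on chromosome 11 from 74830920 to 74845725 on the plus strand. It had 49.8, 51.5 and 51.8 CPM in CD24- and 33.2, 36.6 and 42.4 CPM in CD24+ libraries, again with no overlap. Its log2 fold-change was -0.44 (SE 0.10, adjusted p = 0.00600). It was not called when each distinct sequence was counted once (-0.29, adjusted p = 0.118).

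Mxd1, a repressor known from differentiating cells, lies on chromosome 6 from 86647042 to 86669161 on the minus strand and was scarce. It had 57, 51 and 38 reads in CD24- libraries and 20, 58 and 65 in CD24+ libraries, which is 6.001, 4.84 and 4.29 CPM against 3.15, 3.28 and 3.41 CPM. The log2 fold-change was -0.61 (SE 0.21, adjusted p = 0.0347, edgeR) and the groups did not overlap. The call was lost with DESeq2 (adjusted p = 0.0769). With reads that match transcripts of a single GENCODE gene, Mxd1 had more reads (139, 140 and 107 against 54, 167 and 150) and a log2 fold-change of -0.65 (adjusted p = 0.00465).

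Mxi1, a further Mxd-type repressor on chromosome 19 from 53310518 to 53375810 on the plus strand, was uneven among CD24- libraries. It had 66.95, 68.8 and 35.3 CPM in CD24- and 38.1, 32.3 and 39.2 CPM in CD24+ replicates 1, 2 and 3. CD24- replicate 3 lay within the CD24+ range, so the groups overlapped. The log2 fold-change was -0.65 (SE 0.21, adjusted p = 0.0294) and reached -0.90 (adjusted p = 6.69e-05) without CD24- replicate 3. With another library left out, the adjusted p was between 0.0540 and 0.105.

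Mxd4 was the one tested member whose mean was higher in CD24+ cells, and it did not pass the threshold. This repressor gene on chromosome 5, from 34173883 to 34187720 on the minus strand, had 16.002, 13.5 and 14.4 CPM in CD24- and 23.6, 14.7 and 24.4 CPM in CD24+ libraries. CD24+ replicate 2 lay within the CD24- range. The log2 fold-change was 0.50 (SE 0.19, 95% interval 0.07 to 0.93, adjusted p = 0.0553, edgeR), and the interval is not adjusted for the number of genes tested. Without CD24+ replicate 2 it was 0.71 (adjusted p = 0.00223), and DESeq2 called it (adjusted p = 0.0467). With reads that match transcripts of a single GENCODE gene, Mxd4 had 32.8, 33.9 and 33.9 CPM in CD24- and 57.5, 32.4 and 53.3 CPM in CD24+ libraries, and CD24+ replicate 2 lay below the CD24- range (0.47, adjusted p = 0.0560).

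Mxd3, a repressor gene tied to the S phase of the cell cycle, lies on chromosome 13 from 55325168 to 55329823 on the minus strand. It had 8.84, 8.06 and 6.77 CPM in CD24- and 6.77, 9.77 and 6.81 CPM in CD24+ libraries, overlapping throughout. Its log2 fold-change was -0.001 with a 95% interval from -0.45 to 0.45 (adjusted p = 0.997), and its sign turned under several settings. Mlx, on chromosome 11 from 101087277 to 101092207 on the plus strand, had 51.1, 53.7 and 58.2 CPM in CD24- and 50.8, 47.004 and 46.3 CPM in CD24+ libraries. The groups touched without overlap, and the log2 fold-change of -0.18 missed the threshold (SE 0.09, 95% interval -0.38 to 0.02, adjusted p = 0.126).

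**Figure D3:**
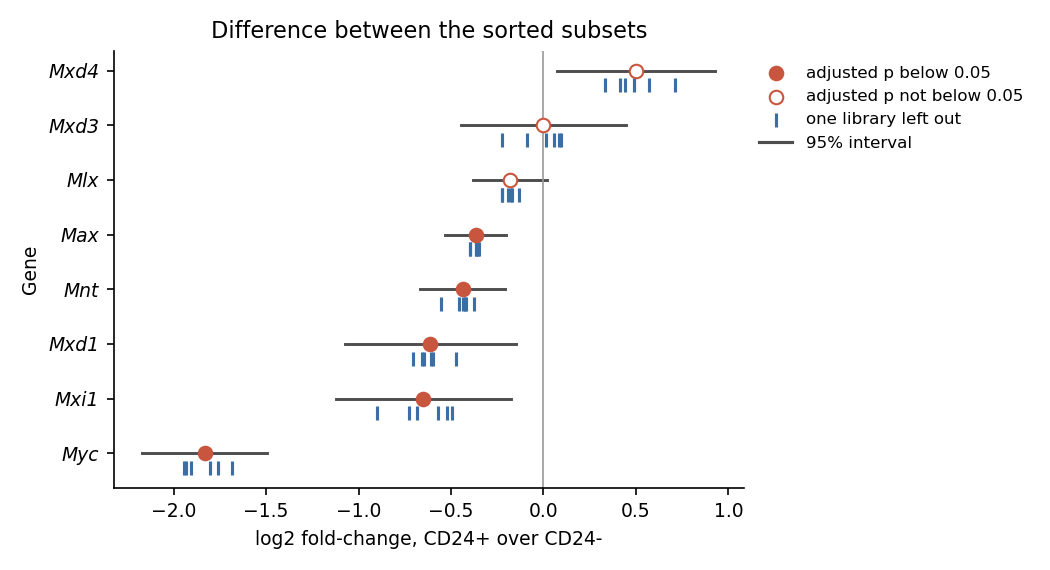
Log2 fold-change of CD24+ over CD24- cells for the 8 tested members, with the 95% interval as a line, filled points where the adjusted p is below 0.05, and blue ticks for the 6 fits that leave out 1 library each. Myc lies apart at -1.83, Max has the narrowest interval, and Mxi1 and Mxd4 move most when a library is left out.

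To compare levels between genes, reads on 1 GENCODE transcript per gene that match no other gene were divided by the start positions where such reads can lie, as CPM per 1000 positions. This matters most for Mxd3, whose transcript shares 59 of its 1067 start positions with Prelid1, and 153, 169 and 129 reads lay on those in CD24- libraries beside 80, 77 and 50 on the other 1008 positions. On this scale Myc led in both groups, at 364 ± 54.7 in CD24- and 104 ± 20.3 in CD24+ cells (SD, n = 3 each), followed by Max at 68.9 ± 1.92 and 56.3 ± 2.53 and Mlx at 34.9 ± 2.32 and 30.8 ± 2.17. In CD24- cells Mnt (10.8 ± 0.377), Mxi1 (10.7 ± 3.58), Mxd4 (10.1 ± 0.0563) and Mxd3 (7.06 ± 1.39) came next, and the range of Mxi1 overlapped those of the other three. In CD24+ cells Mxd4 (14.5 ± 4.08) lay above the range of Mnt, while the ranges of Mnt (7.87 ± 0.815), Mxd3 (7.25 ± 1.44) and Mxi1 (7.101 ± 0.585) overlapped. Mxd1 was last of the tested members in both groups, at 3.01 ± 0.293 and 1.93 ± 0.181.

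The balance between Myc and the other genes was taken within each library on the same scale, a ratio chosen after the data were seen. Myc RNA stood at 6.06, 5.46 and 4.35 times Max RNA in CD24- libraries and at 1.37, 2.07 and 2.16 times in CD24+ libraries. Against the summed level of Mxd1, Mxd3, Mxd4, Mxi1 and Mnt, Myc stood at 9.04, 8.65 and 8.51 times in CD24- and 2.01, 3.26 and 2.92 times in CD24+ libraries. The groups did not overlap for either ratio, and the exact two-sided permutation test gave 0.1 for both, its smallest p. With all reads that match the transcripts, those shared with other genes included, the latter ratio was 5.86 to 6.595 in CD24- and 1.53 to 2.39 in CD24+ libraries. The summed level of these 5 repressor genes relative to Max was 0.670, 0.632 and 0.511 in CD24- and 0.682, 0.636 and 0.739 in CD24+ libraries and overlapped (p = 0.2, same exact test). Myc exceeded Max and the summed repressor genes in every library.

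**Figure D4:**
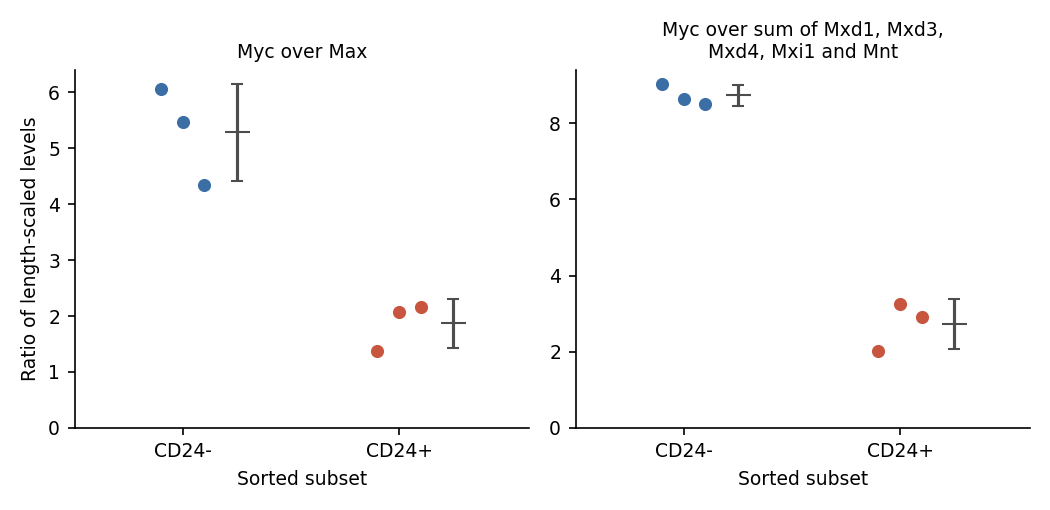
Ratio of the length-scaled level of Myc to that of Max (left) and to the sum of Mxd1, Mxd3, Mxd4, Mxi1 and Mnt (right) in each library, from reads that match no other gene, with the mean and SD of 3 libraries per group beside the points. The CD24- libraries lie at 4.35 or above on the left and 8.51 or above on the right, and the CD24+ libraries at 2.16 or below and 3.26 or below.

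Promoters of several members hold the E-box themselves. RefSeq windows (GRCm38.p6, 250 bases before to 50 bases after a start) were found for 9 of the 10 members, all but Myc, and CACGTG, which reads the same on both strands, was present for 4 of them, Max, Mnt, Mlx and Mxd4. Of 27025 genes with a window, 8.09% hold it, as do 12.1% of the 8819 tested genes with a window. The sites are shown in the direction of the gene with CACGTG in capitals.
Max, chr12:76962243-76962291, minus strand: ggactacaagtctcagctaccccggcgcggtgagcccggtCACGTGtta
Mnt, chr11:74830761-74830846, plus strand: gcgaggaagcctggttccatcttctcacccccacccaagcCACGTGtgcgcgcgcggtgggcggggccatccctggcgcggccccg
Mlx, chr11:101087210-101087295, plus strand: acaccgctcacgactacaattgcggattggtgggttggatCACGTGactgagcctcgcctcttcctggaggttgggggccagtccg
Mxd4, chr5:34187884-34187960, minus strand: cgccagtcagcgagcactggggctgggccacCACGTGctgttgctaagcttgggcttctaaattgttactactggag
Their first bases lie at -3 in Max, -123 in Mnt, -40 in Mlx and -219 in Mxd4, relative to the start. Among these 4 genes Max and Mnt fell and Mlx and Mxd4 did not pass the threshold. Of the tested members whose windows lack CACGTG, Mxd1 and Mxi1 fell and Mxd3 did not pass. Of all tested genes 46.1% passed, 22.3% as lower. Whether the E-box bears on these differences was not tested.

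The genes most like Myc over the 6 libraries, by the Euclidean distance of log2 CPM after each gene's mean was removed, were Chrnb2 (0.14), Dnajc12 (0.24) and Ifi203 (0.25), where the median tested gene was at 2.37. Chrnb2 encodes a nicotinic acetylcholine receptor subunit and went from 7.50 ± 0.738 to 1.99 ± 0.376 CPM (SD, n = 3 each). Dnajc12, a cochaperone, went from 6.08 ± 0.3996 to 1.56 ± 0.288 CPM. Ifi203, an interferon-inducible gene, went from 41.9 ± 3.56 to 12.3 ± 3.25 CPM.

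Other genes of the family were Mga, a Max partner that carries a further DNA-binding domain, and Mlxip, a Mondo protein. Mga had 204, 193 and 207 CPM in CD24- and 111, 128 and 120 CPM in CD24+ libraries and fell by 0.75 on the log2 scale (SE 0.08, adjusted p = 4.11e-05). Mlxip had 41.6, 45.99 and 49.3 CPM in CD24- and 28.3, 33.5 and 36.1 CPM in CD24+ libraries and fell by 0.47 (SE 0.11, adjusted p = 0.00667). Neither overlapped between the groups. Bmyc had 3, 4 and 0 reads in CD24- and 16, 14 and 28 in CD24+ libraries and failed the filter on low counts. Without a filter its log2 fold-change was 2.52 (adjusted p = 0.00480, edgeR). It also entered the fits without CD24- replicate 1, 2 or 3 or CD24+ replicate 2, there only through CD24+ libraries, where it is high. Its calls as higher in those fits are therefore no separate support. Mlxipl and Mycs were named by no annotation.

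Of 15 coactivators and cofactors of Myc, all tested, 6 fell and 0 rose, with a median log2 fold-change of -0.17. Ruvbl1, an ATPase of chromatin remodelling complexes, fell most, from 165 ± 7.99 to 103 ± 11.5 CPM (SD, n = 3 each; -0.68, SE 0.09, adjusted p = 2.17e-04). Crebbp, an acetyltransferase, fell from 122 ± 13.4 to 88.2 ± 13.7 CPM (-0.45, SE 0.12, adjusted p = 0.0116). The count was 2 without CD24- replicate 1 or without replicate 2, and 3 without CD24+ replicate 3. It was 1 when each distinct sequence was counted once, and 1 with median coverage. The share called was 40%, beside 46.1% of all tested genes. All of these calls were falls, and 22.3% of all tested genes fell.

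The Sin3 complex is the one through which Mxd proteins act. Of its 11 tested genes of 12, 2 fell and 1 rose, with a median of -0.05. The share called was 27.3%, beside 46.1% of all tested genes. Brms1 fell from 39.0 ± 2.48 to 27.3 ± 2.24 CPM (-0.51, SE 0.10, adjusted p = 0.00251) and Rbbp7, a histone-binding protein, from 388 ± 2.18 to 324 ± 20.2 CPM (-0.26, SE 0.08, adjusted p = 0.0195). Ing1 rose from 73.0 ± 2.45 to 84.4 ± 1.38 CPM (0.21, SE 0.08, adjusted p = 0.0440) and lost its call with any library left out and under every other alternative run except the filter of 1 CPM in 3 libraries, which kept the same genes (adjusted p from 0.0517 to 0.232). Rbbp7 lost its call without CD24- replicate 1 (adjusted p = 0.0676), CD24- replicate 2 (0.0683) or CD24+ replicate 3 (0.0641). The count was 1 without CD24- replicate 1, without CD24- replicate 2 or without CD24+ replicate 3.

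Among genes that control the stability of Myc protein, 18 of 19 were tested, 4 fell and 0 rose, and the median was -0.02. The share that fell was 22.2%, beside 22.3% of all tested genes. Fbxw7, the ubiquitin ligase subunit that marks phosphorylated Myc for degradation, had 18.7, 17.8 and 17.8 CPM in CD24- and 11.2, 11.1 and 11.1 CPM in CD24+ libraries and fell by 0.71 on the log2 scale (SE 0.12, adjusted p = 6.75e-04). Usp28, the deubiquitinase that opposes it, fell from 35.5 ± 2.90 to 25.6 ± 4.90 CPM (-0.44, SE 0.14, adjusted p = 0.0241), and lost its call without CD24- replicate 1 (adjusted p = 0.0848) or 2 (0.0599). The count was 1 without CD24- replicate 2, 2 without CD24+ replicate 3 and 7 without CD24+ replicate 2.

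Genes known to be activated by Myc moved in both directions. Of 53 tested genes of 55, 19 fell, 4 rose and 30 did not pass, and the median was -0.18. Hk2, the hexokinase of glycolysis, fell from 276 to 128 CPM (-1.11, SE 0.08, adjusted p = 1.50e-06), and Shmt1, an enzyme of one-carbon metabolism, from 60.5 to 30.3 CPM (-0.99, SE 0.09). Ccnd2, a D-type cyclin, had 8.32, 6.64 and 6.43 CPM in CD24- and 119, 92.9 and 111 CPM in CD24+ libraries and rose by 3.91 (SE 0.14, adjusted p = 2.83e-08). Shmt2, the mitochondrial counterpart of Shmt1, rose by 1.06 (SE 0.15), and lost its call when repeated reads of a sequence were counted as 1 (0.45, adjusted p = 0.0777). Of the tested genes of the list 35.8% fell, beside 22.3% of all tested genes, and 7.55% rose, beside 23.8%. As the list was chosen with earlier results of these data known, these shares are a description and not a test. The count called was 14 without CD24+ replicate 3.

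Of 11 genes known to be repressed by Myc, 7 were tested, 4 rose, 0 fell and 3 did not pass, and the median was 0.50. The share that rose was 57.1%, beside 23.8% of all tested genes. The list was chosen with earlier results of these data known, so this share is a description and not a test. Of the 3 that did not pass, Cdkn1a had a lower mean in CD24+ cells (-0.36, SE 0.18, adjusted p = 0.115, edgeR). Ndrg1 and Gadd45b had higher means there. Gas1, a growth arrest gene, had on average 4.28 CPM in CD24- and 63.3 CPM in CD24+ cells (3.88, SE 0.13, adjusted p = 2.03e-08). Thbs1, an inhibitor of angiogenesis, went from 194 to 509 CPM (1.395, SE 0.16, adjusted p = 6.70e-05). Of the 6 targets of Mlx and its Mondo partners, 3 were tested. Txnip, a glucose-responsive gene, fell from 200 ± 43.6 to 70.5 ± 22.5 CPM (-1.502, SE 0.23, adjusted p = 3.83e-04) and Klf10 from 61.2 to 37.9 CPM (-0.69, SE 0.09, adjusted p = 1.22e-04). Arrdc4 had a log2 fold-change of 0.13 (SE 0.19, adjusted p = 0.578). Rgs16 had 1, 0 and 2 reads in CD24- and 7, 9 and 18 in CD24+ libraries, G6pc had 1 read in all, and Pklr was named by no annotation.

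**Figure D5:**
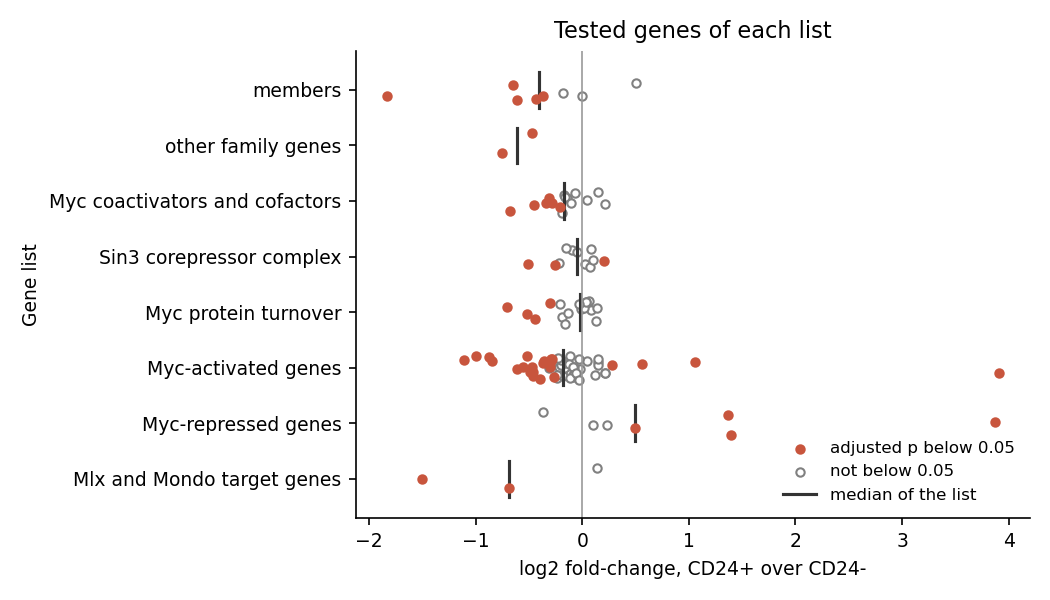
Log2 fold-change of CD24+ over CD24- cells for every tested gene of each list, with filled points where the adjusted p is below 0.05 and a line at the median of the list. The tested Myc-activated genes lie on both sides of 0 with a median of -0.18, and the called Myc-repressed genes all lie above 0.

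Within 2 Mb of Myc, 3 annotated genes had reads. Fam49b, 1949 kb away, had 203, 189 and 227 CPM in CD24- and 157, 156 and 145 CPM in CD24+ libraries and fell by 0.43 on the log2 scale (SE 0.09, adjusted p = 0.00240). Gsdmc1 had 2 reads in all and Gsdmc2 had 3.

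Markers of some cell types differed between the groups, whereas the summed basal and the summed adipocyte markers overlapped. The 8 leukocyte markers summed to 46.9 to 81.1 CPM in CD24- and 7.34 to 9.60 CPM in CD24+ libraries, almost all from Cd68. Itgam had 3.79, 4.46 and 3.27 CPM in CD24- and 0, 0 and 0.0524 CPM in CD24+ libraries. It passed the filter on low counts only through CD24- libraries. The other 6, Ptprc among these, stayed under 1 CPM in every library or were named by no annotation. The 7 fibroblast markers summed to 9.13 to 16.02 CPM in CD24- and 64.9 to 97.9 CPM in CD24+ libraries. Of these, Col1a1, Col1a2 and Dcn passed the filter on low counts through CD24+ libraries, where they are high. Their being tested favored a rise, so no count of rises is set against the background. Pdgfra rose with overlapping groups (log2 fold-change 0.87, SE 0.25, adjusted p = 0.0165, edgeR), and Pdgfrb rose without overlap (3.79, SE 0.21, adjusted p = 4.57e-07). Pdgfra led the list in each CD24- library (4.17 to 8.44 CPM) and Pdgfrb in each CD24+ library (49.9 to 77.6 CPM). The 10 luminal markers summed to 1848 to 2042 CPM in CD24- and 759 to 903 CPM in CD24+ libraries, where Krt8, Krt18 and Krt19 fell and the other 7 stayed under 1 CPM or were named by no annotation. The 5 basal markers summed to 45.2 to 60.9 CPM over the 6 libraries, with Krt5 and Krt14 at or near 0. Mylk made up most of this sum, with 57.1, 54.5 and 49.8 CPM in CD24- and 37.9, 48.1 and 46.9 CPM in CD24+ libraries (-0.27, SE 0.11, adjusted p = 0.0672, edgeR). Acta2 had 1, 8 and 7 reads in CD24- and 39, 97 and 237 in CD24+ libraries. It passed the filter on low counts only through CD24+ libraries, so no test result is given for it. The 5 endothelial markers summed to at most 4.08 CPM. Of these Cdh5 had 15, 24 and 15 reads in CD24- and 3, 2 and 3 in CD24+ libraries. It passed the filter on low counts only through CD24- libraries, so no test result is given for it. The 3 adipocyte markers summed to at most 0.282 CPM. Their part in the differences of the network was not tested.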

How the data were processed

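The 6 libraries were TruSeq RNA libraries sequenced on an Illumina HiSeq as single reads. The authors trimmed 2 nt from each end of the 51-nt reads, collapsed identical 47-nt reads, placed them on the mouse genome (mm9, per the labels) by exact match and gave each 1 annotation, and they deposited the count of each sequence per library, neither normalized nor pooled. The mapping tool is not given in the sources used here. Exact matching leaves out reads across exon junctions and over variants, and intronic reads count toward a gene.

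Counts were summed per annotation, and the 847 repeat and 410 small or noncoding RNA annotations and reads with none (16.9% to 20.2% of a library) were kept out of gene totals. Genes that passed filterByExpr were tested with edgeR 4.0.16 (TMM, quasi-likelihood) in R 4.3.3, on all 6 libraries without covariates. Alternatives were DESeq2 1.42.0, library totals without TMM, other filters, distinct sequences, reads matching 1 GENCODE M21 gene, median coverage with quantile normalization and a regularizer of 10 tested with limma 3.58.1, thinning, a replicate block and each library left out. Groups came from sample titles. The deviations of same-numbered libraries correlated at 0.01, -0.25 and -0.31. These values show no positive pairing by replicate number, but with 3 libraries per group they cannot exclude pairing. Levels per length used reads and start positions of 1 transcript that match no other GENCODE gene, a choice made after the data were seen. The 95% intervals are not adjusted for the number of genes.

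The members and gene lists were chosen with earlier results of these data known, and the lists were written from general knowledge. Named genes were the members, in each other list at most the 2 largest rises and 2 largest falls among called genes whose mean log2 CPM reached 3, every gene of a list of under 7, genes within 2 Mb of Myc, Cd24a, Vegfa and the 3 genes nearest to Myc in pattern. Krt8, Krt18, Epcam, Cdh1 and other markers were named from the marker lists. Cdkn1a, Ndrg1 and Gadd45b were named as the tested Myc-repressed genes that did not pass. Exons of Myc were placed by exact match of reads to its GENCODE transcript in place of the genome named in the design, since no genome sequence was used here. The edgeR fit was run on simulated counts of 11125 genes, with 50 genes changed at each size. It called 48% of genes changed by 0.5 on the log2 scale, 76% at 1, 100% at 2 and 98% at 3. Of all calls 6.4% were false. Far fewer genes were changed there than were called here, which makes the adjusted threshold stricter there. The shares called in the simulation therefore do not measure how often differences of the members' size are missed here. Intervals and floors cover counting error only where a count is given without replicates.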

Additional observations from a re-analysis of the deposited data

Results flagged for a closer look

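Reads outside the annotations that the comparisons rest on were found at 2 places near Myc. In the 1000 bases past the annotated end of Myc, 4124 unannotated reads lay in the 6 libraries together, and 0 in the next 1000 bases and in the 1000 bases before the start. They are described with the parts of Myc above.

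Pvt1, a noncoding gene downstream of Myc, is named by no deposited annotation, and 943 reads matched its GENCODE transcripts and those of no other gene. They numbered 113, 133 and 93 in CD24- and 93, 240 and 271 in CD24+ replicates 1, 2 and 3, which is 11.9, 12.6 and 10.5 CPM against 14.6, 13.6 and 14.2 CPM. The CD24+ libraries were above the CD24- libraries, unlike those of Myc. A lack of overlap is found in 57.3% of all tested genes, and no test result is given for Pvt1.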

How the results depend on the processing

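Of 325 recomputed main values, 271 kept their sign and their call, or stayed within 1.5 times (counts) or 1 SD (values without a test). Among the last, the group difference in the exon 1 share went from -0.37 to 0.087 percentage points without CD24+ replicate 1. Myc and Max were called as lower under every alternative run, Myc between -1.95 and -1.10 and Max between -0.40 and -0.29. The filter of 1 CPM in 3 libraries kept the genes of the main filter. Counting each distinct sequence once moved most results. It left 2 members called (Myc and Max), 1 of the other family genes, 1 coactivator, 1 Sin3 gene and 1 turnover gene, took the log2 fold-changes of Mnt to -0.29, Mxd1 to -0.46 and Mxi1 to -0.45, none of these called, brought MMTV-int past the threshold (-0.38, adjusted p = 0.0385, where DESeq2 gave -0.14, adjusted p = 0.568, and TMM over repeats -0.14, adjusted p = 0.313), and made the difference in reads past the Myc end 7.15 per 100 Myc reads in place of 9.72. Mxd1 was not called with DESeq2 (-0.63) or thinning (-0.56), and Mxd4 was called with DESeq2 (0.49) and without a filter (0.51). Mxd3 turned sign without a filter (0.0057), with distinct sequences (0.18) and with reads of a single gene (0.0157). Median coverage left 1 coactivator, 0 Sin3 genes (limma) and 1 turnover gene called, and thinning left 3 coactivators. Median coverage, whose regularizer of 10 is added before the log, also gave smaller log2 fold-changes for Ccnd2 (1.01), Gas1 (0.98), Mxd1 (-0.16), Mnt (-0.16), Mxi1 (-0.41) and Mxd4 (0.16), and -1.73 for Myc. Of the other named genes, Mlxip, Crebbp, Rbbp7, Usp28 and Shmt2 lost their call with distinct sequences, Crebbp, Brms1, Rbbp7, Fbxw7 and Usp28 with median coverage, Rbbp7 under the replicate block, and Ing1 under every alternative but the filter of 1 CPM. The cause of these moves was not tested. Reads shared with other genes, once included, took the group difference in Myc over the summed repressor genes from -6.002 to -4.19, a setting added after the data were seen.

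With 1 library left out, all genes called ranged from 4069 to 5358, members from 3 to 5, coactivators from 2 to 5, Sin3 genes from 1 to 3, turnover genes from 1 to 7 and Myc-activated genes from 14 to 26. The log2 fold-changes ranged from -0.71 to -0.47 for Mxd1, -0.22 to 0.10 for Mxd3, 0.33 to 0.71 for Mxd4, -0.90 to -0.49 for Mxi1 and -0.11 to 0.25 for Arrdc4, which turned sign without CD24+ replicate 3.

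With the replicate number as a block, though the correlations showed no positive pairing, Mxd1 was not called (-0.59, adjusted p = 0.0970), Mxd4 was (0.48, adjusted p = 0.0362), 1 Sin3 gene was, and 4493 genes were called in all. Myc stood at -1.84 under the block.

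Reads of Myc exons kept only where unique in the genome were not run, as no genome sequence was used here. Depth limits Mycn and Mycl1, which had at most 3 reads per library, and CD24+ replicate 1 had 20 reads of Mxd1.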
